A study of Rattus norvegicus with 18 samples.

Results

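Primary rat astrocytes and primary rat microglia were both exposed to fibrils of Aβ40 for 24 h, and the question taken up here was where the response of one cell type differed from the response of the other. The difference was defined, gene by gene, as the change from untreated to Aβ40-treated astrocytes minus the same change in microglia, on a log2 scale, so a positive difference means that the astrocyte response was the higher. It rested on 12 of the 18 samples of the series: 3 untreated and 3 Aβ40-treated libraries of each cell type. Of the 17307 gene symbols in the astrocyte tables and the 17327 in the microglia tables, 16704 occurred in both, and 11248 of these were expressed well enough to be tested. All cells were wild type and came, per the study's methods, from cortices of newborn Sprague–Dawley pups. Microglia were shaken off mixed glial cultures and astrocytes were the layer that remained attached, and both were kept in serum-free medium with or without fibrils grown from seeds of a single fibril type.

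Astrocytes clear glutamate and potassium, supply neurons with lipids and, under inflammatory cytokines, turn on complement and interferon-stimulated genes. Microglia are the resident phagocytes of the brain, which carry pattern recognition receptors, take up protein aggregates and degrade them in lysosomes. Aβ is cut from the amyloid precursor protein, and Aβ40 is its most abundant form. An interferon signal acts through STAT and IRF factors on a short promoter sequence, the interferon-stimulated response element, and raises antiviral, guanylate-binding and antigen presentation genes. Cholesterol synthesis is switched on by SREBP2 when sterols in the endoplasmic reticulum are low. Lysosomal genes share an E-box, the CLEAR element, that is bound by TFEB and related factors.

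The libraries of the 4 groups held between 2271834 and 19013919 reads counted on genes, with the lowest totals in Aβ40-treated microglia (2271834 to 4425805) and the highest in Aβ40-treated astrocytes (9574779 to 19013919). Between 21.7% and 34.2% of all reads in the tables were not on a gene, the highest share being in 1 untreated astrocyte library that stood apart from the other 2. Markers of astrocytes and microglia went with the labels. In untreated microglia 8 microglia markers summed to 5659 to 6284 scaled CPM (counts per 1000000 of the adjusted library size), against 277 to 292 in untreated astrocytes. The 8 astrocyte markers summed to 7949 to 9701 in untreated astrocytes and 216 to 245 in untreated microglia. The sum of microglia markers fell in both cell types with Aβ40, to 1954 to 2154 in microglia and 104 to 121 in astrocytes. Of these 8 markers, 7 fell and 1 rose in each cell type. Untreated astrocytes held between 1.46% and 59.8% of the microglial level of these markers (median 5.25%), with 5 of 8 under 10%. Another 6 markers, of the oligodendrocyte lineage, summed to 2050 to 2287 CPM in untreated microglia and 1421 to 2238 in untreated astrocytes. In Aβ40-treated microglia they summed to 2379 to 2920, above the microglia markers there. The part that RNA of other cells played in the results below was not tested, and for many genes that were low in one cell type the share is given beside the result. In bulk RNA, fewer cells of a type and less RNA per cell cannot be told apart. Nothing in the labels says that the 3 replicates of a group came from separate cultures or animals, so p-values measure the spread between these libraries, which may be technical.

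The astrocyte and microglia responses differed for 3562 of 11248 genes, or 31.7%, at an adjusted p-value under 0.05 (edgeR's quasi-likelihood test of the interaction with Benjamini-Hochberg adjustment, 3 libraries a group). The astrocyte response was the higher for 1764 genes (15.7%) and the lower for 1798 (16%), and 2416 of the differences were 2-fold or more. By themselves, astrocytes raised 1912 genes (17%) and lowered 2148 (19.1%), and microglia raised 1977 (17.6%) and lowered 1959 (17.4%). For 1980 genes both responses were called, 1431 of them in the same direction and 549 in opposite directions. The median difference over all tested genes was -0.01.

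Genes with a called difference were sorted into classes. A gene that was detected in both cell types, with a called difference and called responses of opposite sign, went opposite ways, and 527 genes did (4.69% of those tested). A gene responded in 1 cell type when it changed at least 2-fold there and the 95% interval of its change in the other cell type lay within 1.5-fold, so that the small change was measured and not only a missed threshold. By this rule 129 genes responded in astrocytes only (1.15%) and 237 in microglia only (2.11%). A further 556 genes (4.94%) changed in the same direction by unequal amounts. Of all these, 5 genes fell into more than 1 class, Ncf1 among them. The counts moved with single libraries: 812 genes went opposite ways without untreated astrocyte replicate 2, the library that stood apart. Genes of astrocytes only numbered 195 without untreated astrocyte replicate 3 and 82, 80 and 77 without untreated microglia replicates 1 and 3 and treated microglia replicate 2, and genes of microglia only 154 and 153 without treated astrocyte replicates 2 and 3.

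**Figure D1:**
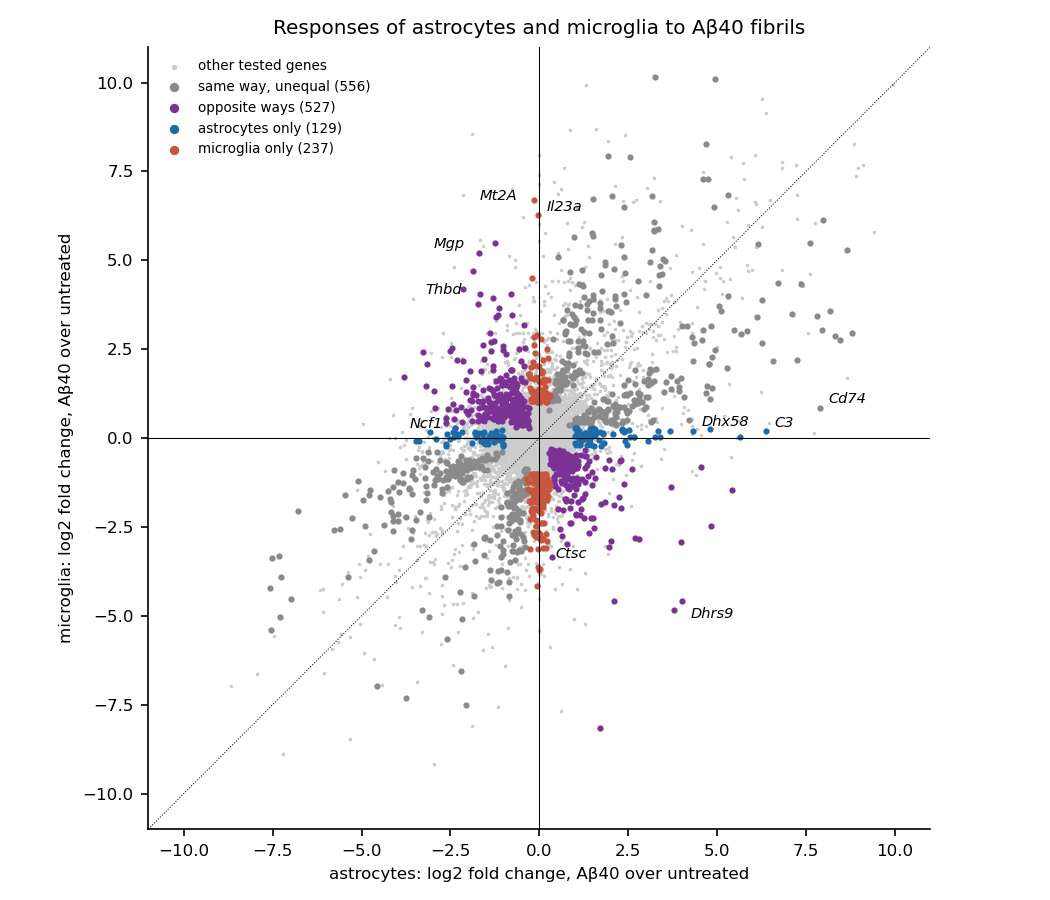
Log2 fold change with Aβ40 in astrocytes (x axis) against that in microglia (y axis) for the 11248 tested genes, each from 3 treated and 3 untreated libraries. The dotted diagonal marks equal responses; 527 genes in purple lie in the upper left and lower right, 129 in blue along the x axis and 237 in red along the y axis.

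Among the 527 genes that went opposite ways, 244 rose in astrocytes and fell in microglia (2.17% of tested genes) and 283 did the reverse (2.52%). The change reached 2-fold in both cell types for 109 (0.969%), of which 41 rose in astrocytes. For 491 of the 527, treated and untreated libraries did not overlap in either cell type. Of all tested genes, 43.1% had no such overlap in astrocytes, 57.3% in microglia and 26.8% in both. The genes with the smallest p-values of each orientation, among those that changed 2-fold or more in both, 11 in all, are described one by one.

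Dhrs9, a short-chain dehydrogenase of retinoid and steroid metabolism, changed places between the cell types. Its level was 6.34, 11.99 and 6.04 CPM in the 3 untreated astrocyte libraries and 138, 115 and 124 with Aβ40, while microglia went from 194, 219 and 221 to 8.97, 7.57 and 10.2. Untreated astrocytes held 3.85% of the microglial level, and with Aβ40 the order was exchanged, with no overlap between treated and untreated libraries in either cell type. Dhrs9 rose 16.1-fold in astrocytes and fell 24.1-fold in microglia, a difference of 8.60 ± 0.31 (log2, SE; adjusted p = 2.38e-10).

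Il6r, the ligand-binding chain of the interleukin-6 receptor, moved from 17.4, 19.7 and 19.4 CPM to 80.9, 87.8 and 76.9 in astrocytes and from 174, 165 and 191 to 48.6, 44.7 and 51.7 in microglia. All 3 treated astrocyte libraries ended above all 3 treated microglia libraries, although the untreated order was the opposite, and the difference was 3.99 ± 0.18 (adjusted p = 1.06e-09). Stat5a, a transcription factor activated by cytokine receptors, rose 4.73-fold in astrocytes, from 20.9, 16.7 and 20.8 to 87.8, 97.3 and 92.96 CPM, and fell 3.13-fold in microglia, from 57.1, 54.3 and 51.5 to 16.3, 19.4 and 15.9 CPM. Its untreated astrocyte level was 35.9% of the microglial one. Ifi47, an interferon-inducible GTPase, rose 13.01-fold in astrocytes (10.04, 12.7 and 13.6 to 166, 152 and 165 CPM) and fell 2.60-fold in microglia (281, 227 and 319 to 122, 100.2 and 94.6 CPM), so that the cell types ended closer together than they began. Uap1l1, related to the pyrophosphorylase that makes UDP-N-acetylglucosamine, showed changes of 1.17 ± 0.12 and -1.99 ± 0.12 (log2, SE) in astrocytes and microglia.

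The reverse orientation was led by Thbd, thrombomodulin, a cell surface receptor that turns thrombin towards protein C activation. Thbd stood at 56.3, 59.7 and 62.3 CPM in untreated astrocytes and 19.3, 17.96 and 18.5 with Aβ40, and at 2.76, 2.39 and 3.22 in untreated microglia and 45.1, 48.7 and 46.03 with Aβ40. Untreated microglia held 4.69% of the astrocyte level, and treated microglia were above treated astrocytes, a difference of -5.73 ± 0.22 (log2, SE; adjusted p = 2.74e-10). H19, an imprinted long noncoding RNA, rose 44.9-fold in microglia, from 5.78, 4.997 and 3.72 to 221, 240.2 and 197 CPM, and fell 2.40-fold in astrocytes, from 84.04, 46.8 and 72.6 to 24.6, 35.3 and 24.7 CPM. Mgp, matrix Gla protein, an inhibitor of calcification, was at 16.6, 16.3 and 16.8 CPM in untreated and 5.52, 4.88 and 5.04 in treated astrocytes, against 0.526, 0.434 and 0.169 and 14.1, 17.9 and 11.8 in microglia. Its untreated microglial level was 2.27% of the astrocyte level, so the microglial increase began close to the detection limit.

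Lsp1, a leukocyte F-actin-binding protein, was at 66.1, 40.7 and 64.01 CPM in untreated and 8.63, 12.3 and 8.87 in treated astrocytes, and rose 5.49-fold in microglia, from 142, 133 and 135 to 739, 659.7 and 856 CPM. Ccl6, a CC chemokine of myeloid cells, behaved alike at a lower astrocyte level: 9.51, 9.28 and 7.88 CPM fell to 2.21, 1.71 and 2.08 in astrocytes while 53.4, 50.6 and 72.9 CPM rose to 261, 259 and 276 in microglia. Both fell in astrocytes together with the summed microglia markers, which went from 277 to 292 CPM down to 104 to 121. Both rose in microglia, where the sum of these markers fell as well, although 1 of the 8 rose. Pla2g7, which hydrolyses platelet-activating factor, was instead higher in untreated astrocytes (516, 624 and 425 CPM) than in untreated microglia (189, 195 and 175 CPM), and its order was exchanged with Aβ40, at 145, 111 and 114 against 592, 501 and 643 CPM. Its difference was -3.71 ± 0.22 (adjusted p = 2.31e-08).

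**Figure D2:**
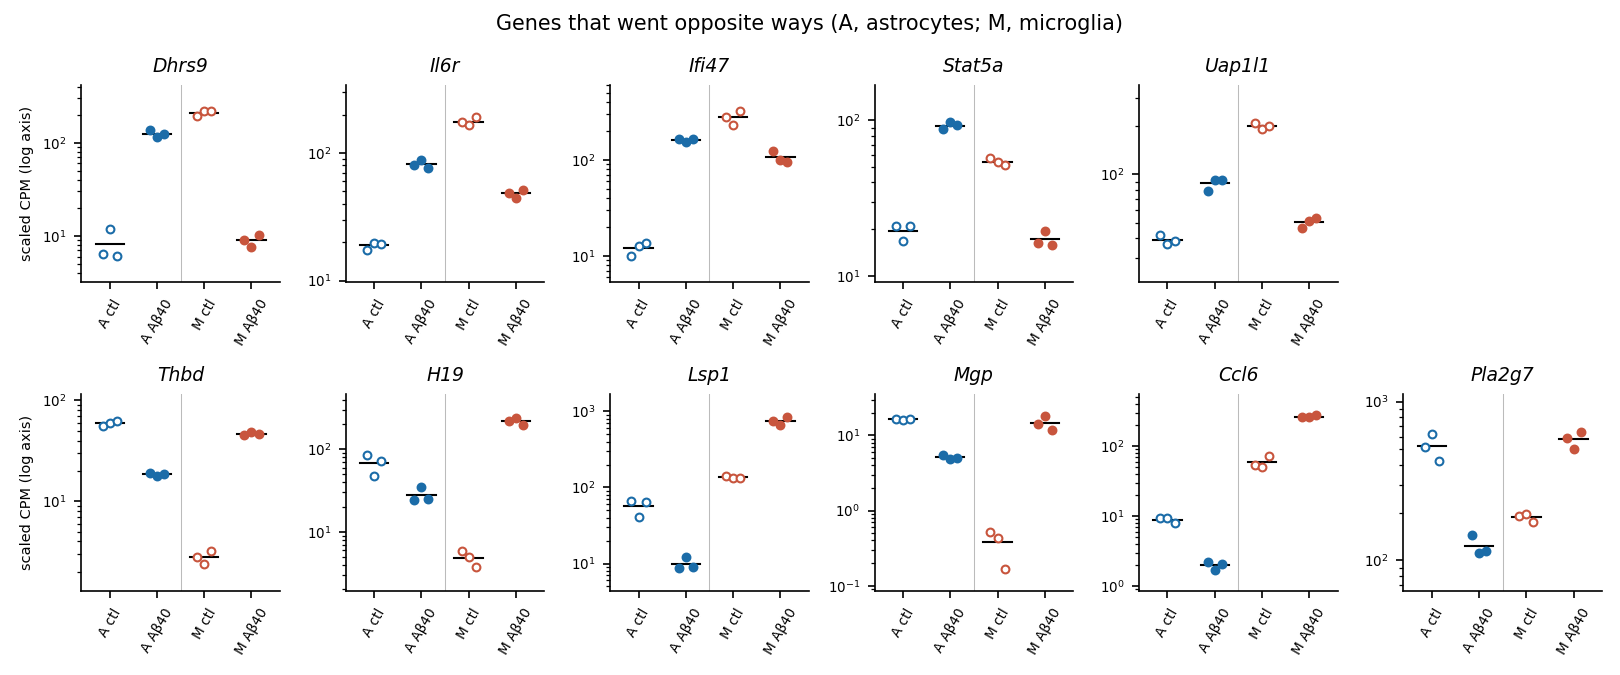
Scaled CPM on a log axis in each of the 12 libraries (points; open, untreated; filled, Aβ40) with the group mean (bar) for the 11 genes described one by one. In the 5 genes from Dhrs9 to Uap1l1 astrocyte points go up and microglia points go down, in the 6 from Thbd to Pla2g7 the reverse, and no treated library overlaps the untreated ones of its cell type.

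How far RNA of the other cell type was present bears on these genes, so each class was counted by its untreated levels. Of the 244 genes that rose in astrocytes, 25 (10.2%) were in untreated astrocytes at under 10% of the microglial level, against 5.37% of all tested genes, and of the 41 that changed 2-fold in both it was 15 (36.6%). Of the 283 that rose in microglia, 42 (14.8%) were in untreated microglia at under 10% of the astrocyte level, and 29 of 68 (42.6%) of those at 2-fold, against 6.65% of all. Another 21 of the 283 (7.42%) fell in astrocytes from under 10% of the microglial level, and 7 of the 68 (10.3%), against 5.37% of all. For the 244 that rose in astrocytes, 0 were in untreated microglia at under 10% of the astrocyte level. Without all genes under 10% in either cell type, 439 of the 527 remained.

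Some 73 genes rose only in astrocytes and 56 fell only in astrocytes (0.649% and 0.498% of those tested). Of the 73, 13 (17.8%) were in untreated astrocytes at under 10% of the microglial level, against 5.37% of all tested genes. C3, the central complement component, rose from 32.2, 45.02 and 38.999 CPM to 3213, 3182 and 3319 in astrocytes. In microglia it was at 3052, 2198 and 3016 CPM without fibrils and at 2989, 3027 and 3377 with them, with overlap between the groups. The astrocyte change was 83.3-fold and the microglial log2 fold change was 0.18 ± 0.14, with a 95% interval from -0.12 to 0.49, so treated astrocytes reached the level that microglia had from the start (difference 6.20 ± 0.21, adjusted p = 2.38e-10). Cd83, a surface glycoprotein of activated antigen-presenting cells, followed the same course, from 15.9, 13.3 and 15.3 to 447, 383 and 427 CPM in astrocytes against 309, 257 and 311 and 358, 355 and 325 CPM in microglia. Dhx58, which encodes the RNA sensor LGP2, rose 20.1-fold in astrocytes (14.5, 13.3 and 11.5 to 259.7, 245 and 274 CPM), with 172, 125 and 172 and 192, 171 and 181 CPM in untreated and treated microglia. RT1-T24-3, a class I histocompatibility gene whose reads may be shared with near-identical RT1 genes, rose from 3.96, 1.81 and 2.82 to 113, 162 and 154 CPM in astrocytes only.

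Of the 4 genes described here that fell only in astrocytes, 3 are known from leukocytes. Ncf1, the p47phox subunit of the phagocyte NADPH oxidase, fell from 42.8, 40.3 and 43.6 to 8.43, 7.70 and 8.43 CPM in astrocytes, while microglia stood at 707, 649.6 and 648 CPM untreated and at 795, 794 and 828 treated. Its untreated astrocyte level was 6.32% of the microglial level, and the small microglial rise of 0.27 ± 0.10 (log2, SE; adjusted p = 0.0466) also put it among the genes that went opposite ways. Arhgdib, a GDP-dissociation inhibitor of blood cells, fell 8.45-fold from 41.2, 36.9 and 30.7 CPM in astrocytes, at 5.71% of the untreated microglial level, and Arhgap30, a GTPase-activating protein, fell 10.5-fold from 10.04, 9.05 and 9.52 CPM, at 2.71%. Trpc6, a calcium-permeable channel, fell 11.1-fold from 6.34, 10.4 and 6.76 CPM, at 4.68%. Of the 56 genes of this kind, 15 (26.8%) were in untreated astrocytes at under 10% of the microglial level, against 5.37% of all tested genes. They fell together with the summed microglia markers of the astrocyte libraries, and the part of these markers' cells in the result was not tested.

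In microglia only, 85 genes rose and 152 fell (0.756% and 1.35% of those tested). Of the 85, 14 (16.5%) were in untreated microglia at under 10% of the astrocyte level, against 6.65% of all tested genes. The smallest interaction p-value among those that rose was that of Mt2A, a metallothionein that binds zinc and copper. Mt2A was at 1.71, 2.61 and 1.69 CPM in untreated and at 213, 206 and 192 in treated microglia, whereas astrocytes were at 476, 267 and 313 CPM untreated and 396, 266 and 291 treated, with overlap. Microglia raised it 104-fold towards the level that astrocytes held throughout, and the astrocyte log2 fold change was -0.15 ± 0.19 with a 95% interval from -0.56 to 0.26. Metallothionein promoters carry metal response elements, with the core TGCRCNC where R is A or G and N is any base. A looser pattern, TGCNCNC, was searched here, and the 250 bases before the Mt2A start hold 5 matches to it on either strand. Among them GAGGGCA, which reads TGCCCTC on the other strand, matches the pattern but not the core. This short pattern was in 54.7% of the promoters of all tested genes, so the match says little by itself, and the number of matches is why the sequence is shown. It lies at chr19:10838709-10838958 on the minus strand of GRCr8, from RefSeq, with the matches in capitals.
Mt2A: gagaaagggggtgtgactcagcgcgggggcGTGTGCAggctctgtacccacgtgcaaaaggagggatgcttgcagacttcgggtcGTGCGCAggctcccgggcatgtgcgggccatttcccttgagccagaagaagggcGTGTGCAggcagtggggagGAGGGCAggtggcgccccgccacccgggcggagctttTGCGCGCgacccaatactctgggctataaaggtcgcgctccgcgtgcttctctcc

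Il23a, the p19 subunit of interleukin-23, was at 0.657, 0.434 and 0.508 CPM in untreated and 45.4, 42.6 and 42.96 CPM in treated microglia. The untreated values lie near the detection limit, as 3 counts are 0.394, 0.652 and 0.508 CPM in those libraries. Astrocytes stayed at 2.38, 2.71 and 2.10 CPM untreated and 2.01, 2.52 and 2.20 treated, and the difference of the responses was -6.30 ± 0.41 (log2, SE; adjusted p = 1.37e-08). Plat, tissue plasminogen activator, was a strong astrocyte gene that did not move there, at 688, 589 and 658 CPM untreated and 647, 628 and 588 treated, and rose 7.39-fold in microglia from 7.36, 10.9 and 6.94 CPM. Gpc4, a glypican of the astrocyte surface that acts on synapses, rose 7.23-fold in microglia from 4.08, 3.69 and 3.22 CPM, where untreated microglia held 1.83% of the astrocyte level. Among the genes that fell in microglia only, Rin2, an exchange factor for the endosomal GTPase RAB5, went from 815, 888 and 934 to 128, 124 and 117 CPM in microglia and stood at 131, 141 and 129 and 150.4, 136 and 147 CPM in untreated and treated astrocytes. Ppt1, a lysosomal enzyme that removes palmitate from proteins, fell 8.75-fold, from 527, 625 and 636 to 67.1, 65.1 and 72.6 CPM. Ctsc, a lysosomal protease that activates serine proteases of granules, fell 7.43-fold, from 582, 557 and 705 to 91.8, 83.8 and 71.1 CPM, against an astrocyte interval from -0.08 to 0.50 (log2). Cln8, a cargo receptor that carries lysosomal enzymes out of the endoplasmic reticulum, fell 6.48-fold. Of these 4 genes, 3 thus serve the lysosome.

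**Figure D3:**
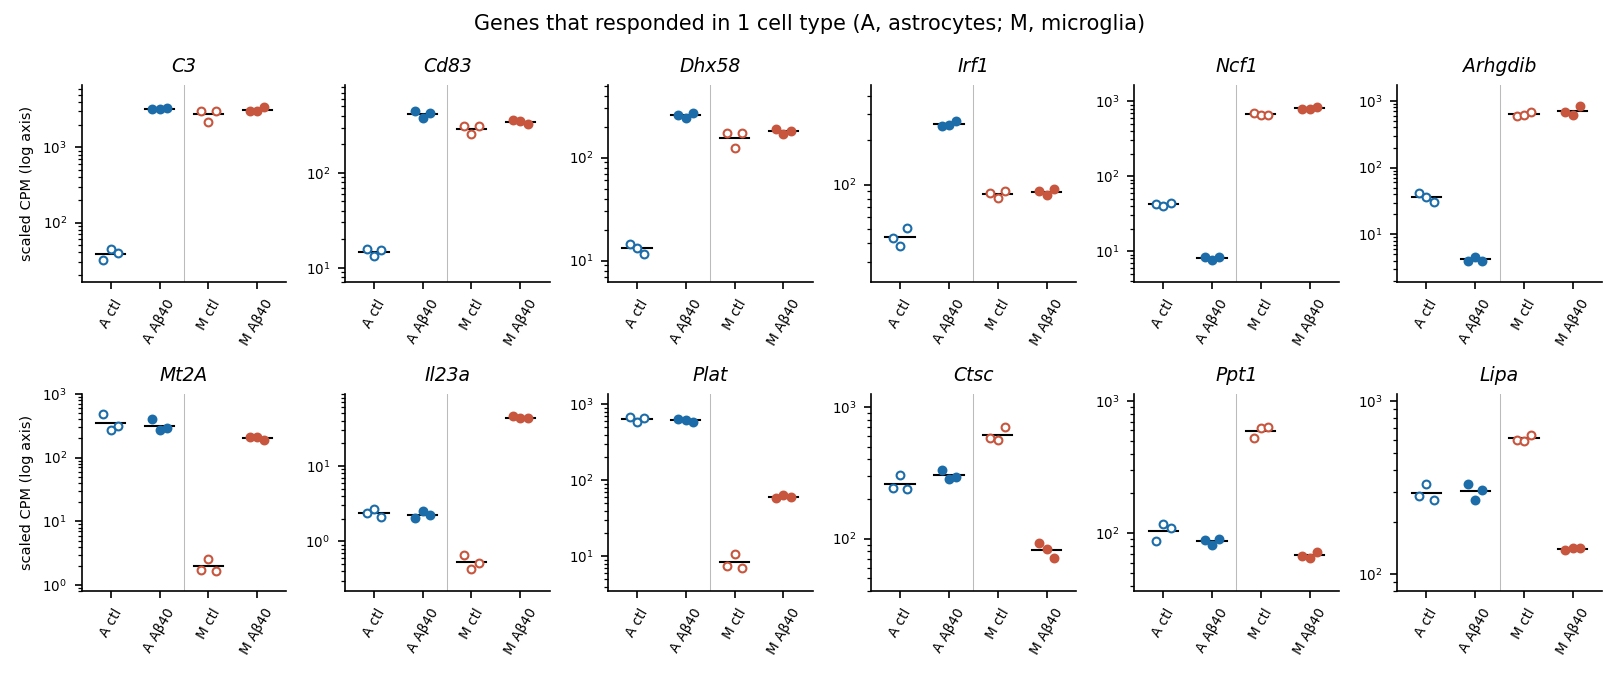
Scaled CPM on a log axis in each of the 12 libraries (points; open, untreated; filled, Aβ40) with the group mean (bar) for 12 genes that responded in 1 cell type. In the 4 genes C3, Cd83, Dhx58 and Irf1 the astrocyte points rise, in Ncf1 and Arhgdib they fall, and in the other 6 the astrocyte points stay level while the microglia points move.

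Genes that changed in the same direction by unequal amounts numbered 148 that rose more in astrocytes, 149 that rose more in microglia, 144 that fell more in astrocytes and 115 that fell more in microglia. Cd74, the invariant chain of class II antigen presentation, was at 2.38, 4.53 and 2.04 CPM in untreated and 555, 712 and 665 in treated astrocytes, and at 72.3, 64.3 and 85.8 and 130.1, 139.8 and 133 CPM in microglia. The 237-fold rise in astrocytes took it past microglia, which raised it 1.81-fold. Slfn2, a schlafen gene that restrains proliferation of immune cells, rose 18.6-fold in astrocytes and 1.42-fold in microglia, yet stayed lower in treated astrocytes (141, 135 and 146 CPM) than in untreated microglia (536, 531 and 569.8 CPM). Tshr, the thyrotropin receptor, rose 49.95-fold in microglia from 1.45, 1.09 and 0.846 CPM to 51.3, 61.8 and 62.4, and 1.96-fold in astrocytes from 30.4, 33.5 and 26.5 CPM. PVR, the poliovirus receptor CD155, rose from 84.7, 73.2 and 70.4 to 717, 746 and 835 CPM in microglia and from 47.6, 52.04 and 51.6 to 77.99, 82.9 and 81.2 CPM in astrocytes.

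Of the tested genes, 10377 were detected in both cell types, 577 in astrocytes only and 294 in microglia only, a gene being detected with a mean of 1 CPM and over 3 counts in every library of a group. Among those detected in astrocytes only, 90 rose and 150 fell by 2-fold or more, and among those detected in microglia only 86 rose and 93 fell. Ubd, the ubiquitin-like protein FAT10, rose from 0.529, 0.679 and 0.525 to 98.1, 93.4 and 102 CPM in astrocytes and was at 0, 0.217 and 0 and 1.36, 1.26 and 1.53 CPM in microglia. Ptx3, a soluble pentraxin that binds C1q, went from 10.04, 11.5 and 12.9 to 162, 171 and 170.5 CPM, and Lrtm2, a leucine-rich repeat membrane protein, from 2.64, 2.94 and 3.55 to 59.9, 64.3 and 62.9 CPM in astrocytes. Ptx3 was not detected in microglia by this rule but rose there too. Its change was 2.59 in the fit of all 18 libraries (log2, adjusted p = 0.0266 by the quasi-likelihood test). In microglia, Lta, lymphotoxin α, was at 0.263, 1.09 and 0.508 CPM untreated and 227, 242 and 239 treated, and Ccl22, a chemokine of dendritic cells and macrophages, at 0, 0.217 and 0.508 and 98.9, 88.6 and 104 CPM. Stap1, a signalling adaptor of myeloid and B cells, was lost from microglia, from 143, 168 and 149 to 0.815, 0 and 0.511 CPM. In astrocytes these last 3 genes stood under 1 CPM in every library, and no fold is given. For Ubd, Ptx3 and Stap1 the difference between the responses was not itself called (adjusted p = 0.269, 0.54 and 0.804), and that of Ccl22 was not called without untreated astrocyte replicate 3 (adjusted p = 0.943).

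Lists of genes with a known shared role were then read by their counts of called differences, beside 15.7% higher and 16% lower over all tested genes. No list was tested as a set. The astrocyte response was the higher in most called members of the interferon, antigen presentation, cholesterol and lysosome lists, and the lower in most called members of the cell cycle, glycolysis, antioxidant, adhesion and astrocyte transport lists. Without any allowance for library size the median over all genes moved from -0.01 to 1.87, and these last 5 lists then had medians from 0.99 to 1.71, above 0 but still below that of all genes.

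**Figure D4:**
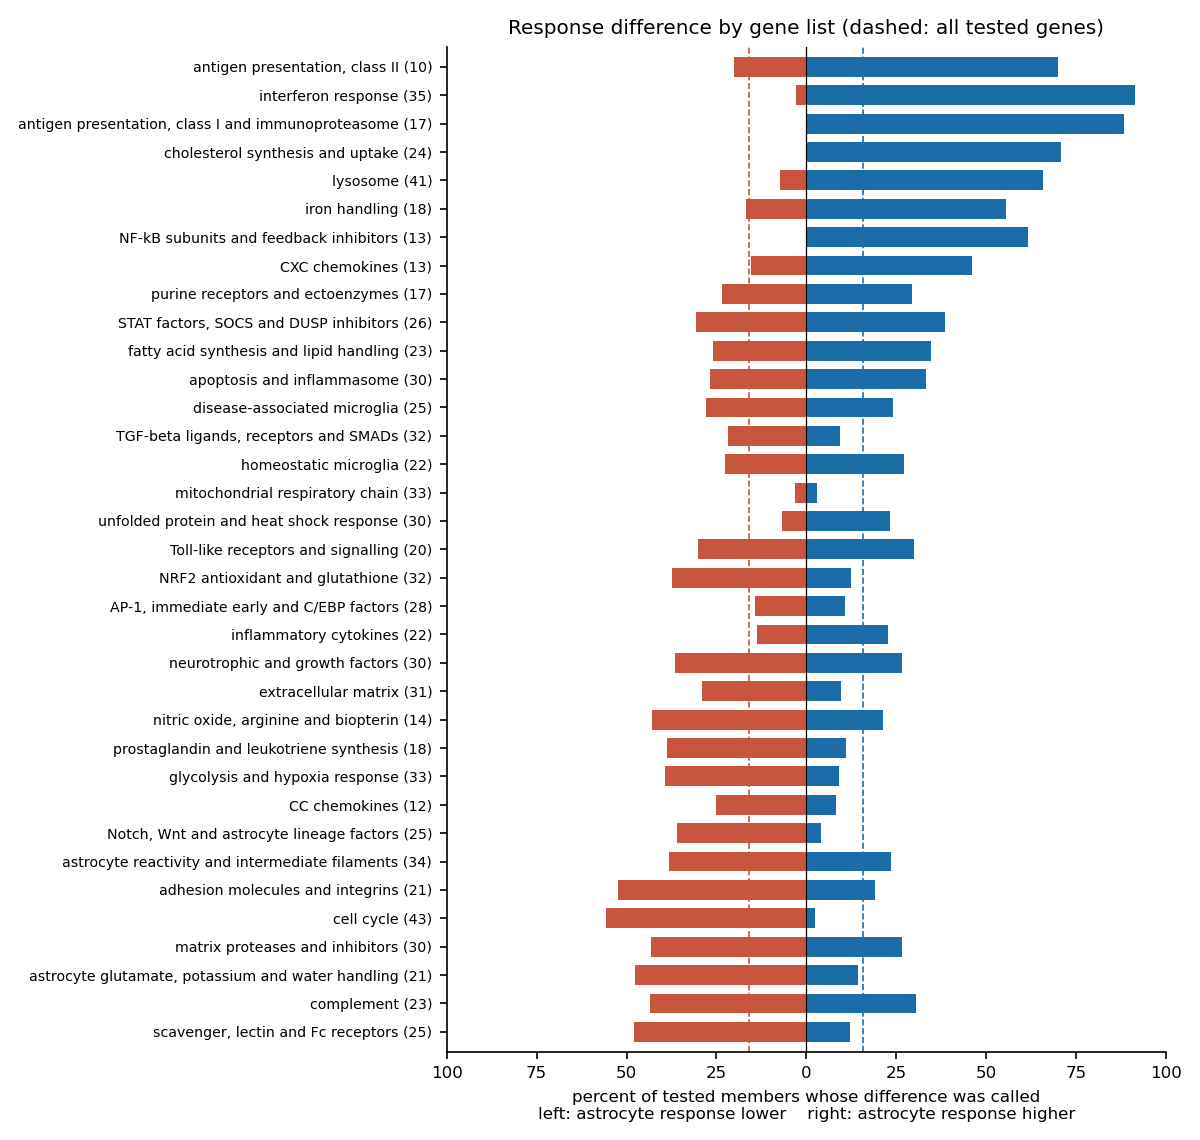
Percent of the tested members of each gene list whose response difference was called, with the astrocyte response lower to the left (red) and higher to the right (blue); dashed lines mark all tested genes, 16% and 15.7%. The interferon list has 32 of 35 members to the right and the cell cycle list 24 of 43 to the left.

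Most interferon-stimulated genes rose in astrocytes and in microglia, and for most the astrocyte response was the higher. Of 35 tested members of the interferon response, 34 rose in astrocytes and 25 in microglia, where 2 fell. The difference was called higher in astrocytes for 32 and lower for 1, with a median of 1.89 against -0.01 over all genes. Ifit3, an antiviral protein with tetratricopeptide repeats, chosen here after its values were seen, was at 3.70, 5.88 and 2.23 CPM in untreated and 546, 469 and 561 in treated astrocytes. Microglia began higher, at 132, 87.1 and 138 CPM, and ended at 613, 497 and 529, so that the treated libraries of the cell types overlapped while the untreated ones were far apart. The difference was 5.05 ± 0.35 (log2, SE; adjusted p = 7.69e-08). Zbp1, a sensor of Z-form nucleic acid that can start necroptosis, was the only member that went opposite ways, from 0.793, 0.905 and 0.788 to 12.5, 13.6 and 12.7 CPM in astrocytes and from 61.8, 35.8 and 61.3 to 8.97, 8.08 and 2.56 CPM in microglia.

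The transcription factors of this pathway divided between the cell types. Irf1 was at 43.1, 38.2 and 50.6 CPM in untreated and 249, 254 and 270.1 in treated astrocytes, and at 88.1, 81.5 and 90.4 and 90.7, 84.3 and 92.6 CPM in microglia, a rise of 5.81-fold in astrocytes only. Irf8, a factor that microglia need for their identity, fell 12.99-fold in microglia, from 208, 169 and 227 to 11.4, 20.9 and 13.3 CPM, and stood at 14.01, 8.60 and 12.2 and 9.84, 12.9 and 12.02 CPM in astrocytes. The 1 member with a lower response in astrocytes was Ifitm3, a membrane protein that blocks viral entry. It rose 26.6-fold in microglia from 8.15, 4.34 and 4.57 CPM and 2.29-fold in astrocytes from 498, 402 and 401 CPM. The gap between the cell types thus narrowed, with treated microglia still well below the level of untreated astrocytes.

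The promoters of 3 of these genes are shown because their responses differed between the cell types in different ways while each holds the core of the interferon-stimulated response element, which is GAAA, any 2 bases and GAAA, on one or the other strand. Ifit3 rose in both cell types and more in astrocytes, Psmb10, a subunit of the immunoproteasome, rose in astrocytes only, and Ifitm3 rose more in microglia. The 250 bases before the start come from RefSeq on GRCr8, at chr1:241527076-241527325 on the plus strand for Ifit3, chr19:50743293-50743542 on the minus strand for Psmb10 and chr1:205541759-205542008 on the minus strand for Ifitm3. Capitals mark the matches, which begin 44 bases before the start in Ifit3, 73 and 17 in Psmb10 and 44 in Ifitm3.
Ifit3: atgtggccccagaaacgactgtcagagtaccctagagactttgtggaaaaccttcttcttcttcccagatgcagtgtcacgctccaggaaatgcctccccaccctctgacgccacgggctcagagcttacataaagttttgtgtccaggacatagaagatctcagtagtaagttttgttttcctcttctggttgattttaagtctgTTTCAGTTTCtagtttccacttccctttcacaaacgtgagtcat
Psmb10: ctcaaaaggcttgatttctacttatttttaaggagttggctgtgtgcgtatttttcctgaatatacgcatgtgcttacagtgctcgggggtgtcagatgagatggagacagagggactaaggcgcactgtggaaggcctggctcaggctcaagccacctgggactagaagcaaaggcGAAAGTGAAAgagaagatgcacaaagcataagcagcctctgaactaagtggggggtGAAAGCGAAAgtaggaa
Ifitm3: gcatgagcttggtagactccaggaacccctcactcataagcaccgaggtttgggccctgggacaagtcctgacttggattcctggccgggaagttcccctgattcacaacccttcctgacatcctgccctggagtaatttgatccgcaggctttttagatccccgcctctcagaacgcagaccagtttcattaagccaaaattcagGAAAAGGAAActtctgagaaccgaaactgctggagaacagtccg

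This core was present in 18 of 26 interferon genes with a promoter sequence (69.2%), in 8 of 16 genes of class I antigen presentation (50%) and in 238 of all 8838 tested genes with one (2.69%). It was in 7 of 62 genes that rose only in astrocytes (11.3%), in 0 of 68 that rose only in microglia and in 3 of 189 that rose in astrocytes and fell in microglia (1.59%). Promoters that hold it thus include both genes that responded in astrocytes only and genes that responded more in microglia, and a match is a description of the letters, not of a factor bound there.

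Class I antigen presentation rose in astrocytes throughout. All 17 tested members of the list, which holds class I chains, peptide transporters and the immunoproteasome, rose in astrocytes and 8 rose in microglia, and the difference was called higher in astrocytes for 15 (median 1.52). Psmb10 rose from 34.9, 15.4 and 36.8 to 186, 177 and 201 CPM in astrocytes and was at 106, 86.2 and 99.5 and 94.5, 102 and 99.2 CPM in microglia. Psmb8, another catalytic subunit of the immunoproteasome, rose 9.15-fold in astrocytes, with a microglial log2 fold change of 0.45 ± 0.24 (adjusted p = 0.173) that was not called. Reads of the RT1 class I genes of the list may be shared between near-identical copies.

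Most class II genes responded more in astrocytes. Of 10 tested members, 7 had a called higher response in astrocytes and 2 a lower one, with a median difference of 4.91, which was 1.54 among members with 10 counts in every library. Ciita, the master regulator of class II genes, named after its values were seen, was at 0.264, 0 and 0.131 CPM in untreated and 26.6, 36.1 and 28.7 in treated astrocytes, and at 1.05, 0.434 and 1.86 and 0.815, 1.01 and 2.56 CPM in microglia, where the groups overlapped. Cd86, the costimulatory ligand of CD28, went the other way, rising in microglia from 52.6, 47.8 and 53.6 to 90.5, 73.2 and 113 CPM and falling in astrocytes from 4.49, 8.60 and 3.48 to 1.004, 0.352 and 0.755 CPM. Treated astrocytes therefore held more Cd74 and Ciita RNA than treated microglia and less Cd86 RNA.

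Genes of upstream inflammatory signalling differed as well. In the NF-κB list of subunits and feedback inhibitors, 12 of 13 members rose in astrocytes and 10 in microglia, with 8 called higher in astrocytes and 0 lower (median 0.87). Nfkbie, an inhibitor that holds NF-κB in the cytoplasm, rose 9.91-fold in astrocytes, from 20.1, 10.6 and 22.6 to 173, 195 and 174 CPM, and its microglial change of 0.46 ± 0.19 (log2, SE) was not called. Rela, the p65 subunit, was the member that went opposite ways, from 167, 105 and 157 to 327, 393 and 342 CPM in astrocytes and from 235, 214 and 236 to 163, 163 and 161 CPM in microglia. The NF-κB core, which is GGGA, any base and TTTCC on either strand, was in 3 of 11 promoters of this list (27.3%) and in 0.453% of all.

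Among Toll-like receptors and their adaptors, 6 of 20 members were called higher and 6 lower. Tlr2, a receptor for lipopeptides and aggregates, rose 9.20-fold in astrocytes from 5.02, 7.47 and 8.40 CPM, where untreated astrocytes held 1.65% of the microglial level, and 1.43-fold in microglia. Tlr3, a receptor for double-stranded RNA, rose from 8.19, 15.8 and 6.57 to 20.98, 18.3 and 20.2 CPM in astrocytes and fell from 92.8, 89.5 and 104 to 33.96, 35.6 and 36.3 CPM in microglia. Irak4, the kinase below most of these receptors, also went opposite ways, by 0.55 ± 0.15 and -0.55 ± 0.15 (log2, SE). Tlr7, a receptor for single-stranded RNA, fell 6.07-fold in astrocytes only, from 1.52% of the microglial level. Cd14, the coreceptor for lipopolysaccharide, rose 2.32-fold in microglia only.

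Cytokines and chemokines were mostly raised in both cell types. Of 22 tested cytokines, 13 rose in astrocytes and 16 in microglia, with 5 called higher and 3 lower, and of 13 CXC chemokines 12 and 11 rose, with 6 called higher and 2 lower. Cxcl17 had the highest difference of its list, at 0, 0.453 and 0.197 CPM in untreated and 46.1, 63.3 and 60.05 in treated astrocytes against 8.15, 5.65 and 6.60 and 56.5, 60.3 and 52.7 in microglia. Cxcl12, the ligand of CXCR4, had the lowest, with a 15.1-fold rise in microglia from 0.789, 1.09 and 1.35 CPM and a 4.37-fold rise in astrocytes from 90.9, 120.1 and 105 CPM. Ccl5, which attracts T cells, was at 292, 270.4 and 333 CPM in treated astrocytes and 22.01, 24.2 and 22.5 in treated microglia, from 2.38, 2.26 and 0.919 and 0.657, 0.217 and 0.508 CPM. Its difference of 2.13 ± 0.56 (adjusted p = 0.0177) was not called without untreated astrocyte replicate 3 (1.51), without untreated microglia replicate 1 (1.75) or 3 (2.10), or in the fit of all 18 libraries (2.14, adjusted p = 0.0776). Nos2, the inducible nitric oxide synthase, rose 39.3-fold in microglia to 1467, 1347 and 1782 CPM and from 0.793, 1.81 and 0.394 to 305, 320.3 and 311 CPM in astrocytes.

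Complement genes moved in both directions. Of 23 tested members, 7 had a higher and 10 a lower response in astrocytes. C2, a protease precursor of the classical pathway, rose in astrocytes from 99.6, 57.7 and 126 to 528, 582 and 635 CPM and fell in microglia from 527, 406 and 610.5 to 296, 283 and 273 CPM, and Serping1, the C1 inhibitor, rose 10.5-fold in astrocytes only, from 189, 204 and 164 to 1876, 2015 and 1959 CPM. C1qb, a chain of the recognition molecule C1q, fell in both, from 85.6, 53.4 and 83.6 to 0.201, 0.453 and 0.441 CPM in astrocytes and from 495, 374 and 574 to 60.6, 47.7 and 29.2 CPM in microglia. The receptors went the other way: C5ar1, the receptor of C5a, fell in astrocytes from 19.3, 17.4 and 13.9 to 4.12, 2.77 and 2.58 CPM and rose in microglia from 396, 383 and 401 to 754, 726 and 828 CPM, and Itgam, the α chain of complement receptor 3, fell from 18.8, 10.2 and 16.9 to 5.72, 5.18 and 4.66 CPM and rose from 389, 418 and 438 to 859.9, 847 and 872 CPM. Itgb2, its β chain, fell 2.79-fold in astrocytes only. Untreated astrocytes held 4.28%, 3.68% and 1.75% of the microglial levels of these 3 receptor genes, and they fell there with the summed microglia markers. Itgam is itself a member of that sum, so its fall is not independent of it.

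In the cholesterol synthesis list, called changes went mostly up in astrocytes and mostly down in microglia. Of 24 tested members, 12 rose and 0 fell in astrocytes, while 1 rose and 10 fell in microglia, and the difference was called higher in astrocytes for 17 and lower for 0, with a median of 1.05. Members that went opposite ways were Sqle, squalene epoxidase, Ebp, a sterol isomerase, Insig1, which retains the SREBP escort protein in the endoplasmic reticulum, and Stard4, a sterol carrier. Insig1 rose from 48.9, 62.7 and 55.1 to 113, 97.04 and 106 CPM in astrocytes and fell from 114, 132 and 102 to 81.5, 68.9 and 73.7 CPM in microglia, with no overlap (difference 1.56 ± 0.20, adjusted p = 2.67e-05). Sqle began at almost the same level in both, at 141, 171 and 143 CPM in astrocytes and 159, 139.9 and 138 CPM in microglia, and parted to 207, 175 and 193 and 99.7, 92.9 and 97.7 CPM. Ebp changed by 0.72 ± 0.16 in astrocytes and -0.64 ± 0.16 in microglia (log2, SE), and Stard4 by 0.90 ± 0.26 and -1.17 ± 0.22. The highest difference was that of Tm7sf2, a sterol reductase, at 2.13 ± 0.59 (adjusted p = 0.0114), with overlap between its astrocyte groups. The sterol response element core TCACNCCAC was in 0 of 17 promoters of the list and in 1.07% of all.

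Most lysosomal genes fell in microglia. Of 41 tested members, 29 fell and 3 rose in microglia, while 8 fell and 7 rose in astrocytes, and 27 differences were called higher in astrocytes and 3 lower (median 0.93). Lipa, the lysosomal acid lipase, fell 4.34-fold in microglia, from 595, 592 and 640.1 to 137, 142 and 141 CPM, with an astrocyte interval from -0.21 to 0.28 (log2). Mcoln1, the calcium channel TRPML1 through which TFEB is activated, and Atp6v1b2, a subunit of the proton pump, went opposite ways by smaller amounts, 0.39 ± 0.12 against -0.38 ± 0.12 and 0.41 ± 0.13 against -1.10 ± 0.13 (log2, SE). Atp6v0a1, another subunit of the pump, went opposite ways in the reverse orientation. It changed by -0.35 in astrocytes and 0.87 in microglia in the fit of all 18 libraries (log2). Laptm5, a lysosomal membrane protein of leukocytes, ran against the list with the lowest difference, falling 15.8-fold in astrocytes from 3.75% of the microglial level and 2.37-fold in microglia. In all, 8 members fell in microglia only, and 0 responded in astrocytes only.

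The CLEAR E-box CACGTG was in 8 of 31 promoters of the lysosome list (25.8%), in 13 of 119 genes that fell only in microglia (10.9%) and in 7.99% of all tested genes. The hypoxia response element used here, NACGTGC, shares letters with it, so 1 stretch can match both. The Mcoln1 promoter is shown as a lysosomal gene that went opposite ways and holds the E-box 22 bases before the start, in capitals, at chr12:6358008-6358257 on the plus strand of GRCr8.
Mcoln1: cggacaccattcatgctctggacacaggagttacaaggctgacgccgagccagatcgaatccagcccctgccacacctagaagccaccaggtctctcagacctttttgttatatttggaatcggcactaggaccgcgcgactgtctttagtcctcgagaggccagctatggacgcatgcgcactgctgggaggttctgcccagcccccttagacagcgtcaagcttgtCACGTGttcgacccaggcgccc

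**Figure D5:**
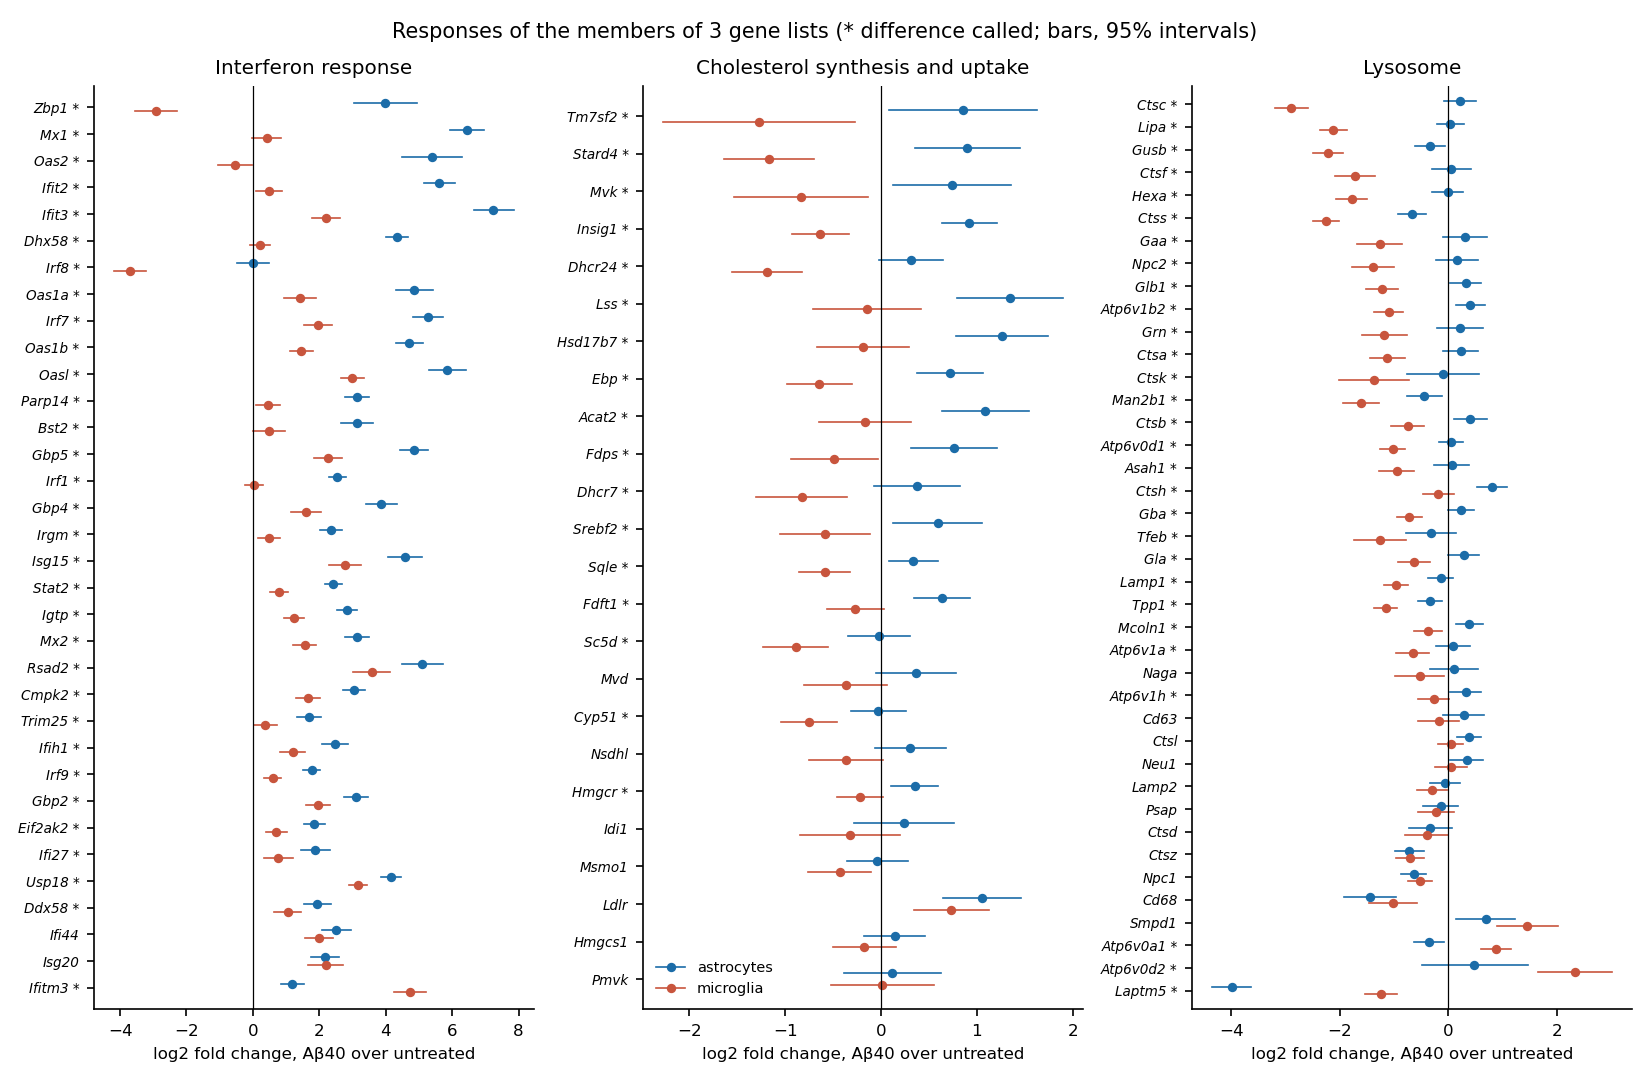
Log2 fold change with Aβ40 in astrocytes (blue) and microglia (red) with 95% intervals for members of the interferon, cholesterol and lysosome lists, ordered by the difference; an asterisk marks a called difference. Astrocyte points lie to the right of microglia points for most members, with microglia above 0 for most interferon genes and below 0 for most lysosomal genes.

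Glycolysis and the hypoxia response showed the reverse split. Of 33 tested members, 18 rose and 2 fell in microglia, while 8 rose and 9 fell in astrocytes, and 13 differences were called lower in astrocytes and 3 higher (median -0.58). Slc2a1, the glucose transporter GLUT1, rose 7.54-fold in microglia, from 123, 126 and 112 to 888, 904 and 931 CPM, and was at 319, 159 and 293 and 207, 239 and 231 CPM in untreated and treated astrocytes. Hk1, the first enzyme of glycolysis in brain, rose from 218, 209 and 188 to 656, 655 and 675 CPM in microglia only. Eno1, enolase, rose from 833, 849 and 879 to 1991, 1996 and 1926 CPM in microglia and was called lower in astrocytes (1255, 608 and 1172 to 662, 666 and 726 CPM), where the groups overlapped through 1 untreated library. Pgk1, phosphoglycerate kinase, changed by -0.33 ± 0.11 in astrocytes and 0.50 ± 0.11 in microglia. Egln3, a prolyl hydroxylase of hypoxia-inducible factor, rose 5.66-fold in microglia only. Against these, Ndrg1, a stress gene also induced by hypoxia, rose 2.29-fold in astrocytes (43.1, 37.6 and 44.6 to 99.9, 96.6 and 90.9 CPM) and fell 2.22-fold in microglia (373, 406 and 371 to 172, 173 and 173 CPM). In the mitochondrial respiratory chain, 1 of 33 members was called higher and 1 lower, 6.06% in all against 31.7% of tested genes.

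In the antioxidant list more members rose in microglia than in astrocytes. Of 32 members of the NRF2 and glutathione list, 14 rose in microglia and 6 in astrocytes, with 12 differences called lower in astrocytes and 4 higher (median -0.20). Slc7a11, the cystine transporter that feeds glutathione synthesis, rose 73.98-fold in microglia, from 11.6, 11.9 and 7.79 to 776, 714 and 827 CPM, and was at 34.6, 54.8 and 43.1 and 40.1, 25.2 and 32.2 CPM in astrocytes. Srxn1, sulfiredoxin, rose 5.29-fold in microglia only, to 98.1, 86.3 and 79.3 CPM. Nfe2l2, which encodes NRF2 itself, went the other way, rising from 302, 375 and 325 to 759, 598 and 683 CPM in astrocytes and falling from 419, 403 and 402 to 306, 285 and 290.0 CPM in microglia. The RNA of the factor and of several of its known targets thus differed in opposite directions. The antioxidant response element core TGACNNNGC was in 5 of 27 promoters of the list (18.5%) and in 12.5% of all.

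Most cell cycle genes fell in each cell type, and most called differences were lower in astrocytes. Of 43 members, 34 fell in astrocytes and 28 in microglia, and 24 differences were called lower in astrocytes and 1 higher (median -0.80). Rrm2, a subunit of ribonucleotide reductase, fell 6.14-fold in astrocytes only, from 45.5, 44.6 and 43.7 to 6.52, 7.95 and 7.11 CPM, against 26.7, 35.2 and 34.9 and 24.995, 29.3 and 28.6 CPM in microglia. Ccne2, cyclin E2, had the lowest difference, at -2.61 ± 0.47 (log2, SE; adjusted p = 0.000661). Tpx2, a spindle assembly factor, was the exception, rising from 81.1, 131 and 74.6 to 138, 143 and 138 CPM in astrocytes and falling from 54.03, 63.9 and 67.9 to 37.2, 35.6 and 34.3 CPM in microglia.

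Most genes of astrocyte function fell in astrocytes, and some rose in microglia. Of 21 members of the list of glutamate, potassium and water handling, 14 fell in astrocytes, and the difference was called lower in astrocytes for 10 and higher for 3 (median -0.97). Gja1, the gap junction protein connexin 43, fell from 658, 796 and 497 to 481, 364 and 389 CPM in astrocytes and rose from 21.8, 21.5 and 16.1 to 60.04, 59.8 and 54.7 CPM in microglia, and Slc4a4, a bicarbonate cotransporter, fell 2.48-fold and rose 3.79-fold. Sox9, a factor of astrocyte identity, fell from 358, 363 and 219.9 to 167, 191 and 155 CPM and rose from 9.99, 14.99 and 8.63 to 15.2, 18.9 and 20.97 CPM. Untreated microglia held 3.04%, 5.33% and 3.57% of the astrocyte levels. The summed astrocyte markers of microglia libraries were 216 to 245 CPM untreated and 228 to 236 treated. That sum holds Gja1, Sox9 and Slc1a3 among its 8 genes, of which 3 rose and 1 fell in microglia, and the part of astrocyte RNA in these rises was not tested. Slc1a3, the glutamate transporter GLAST, had the highest difference of the list, with a fall of 3.74-fold in microglia and 1.76-fold in astrocytes.

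In the list of Notch, Wnt and lineage factors, 9 of 25 members were called lower in astrocytes and 1 higher. Hes1, a target of Notch, and Wnt5a, a noncanonical Wnt ligand, changed by -0.75 ± 0.22 and -1.55 ± 0.18 in astrocytes and by 1.44 ± 0.36 and 0.64 ± 0.19 in microglia (log2, SE), and Jag1, a Notch ligand, was the member called higher, with a rise from 13.7, 14.9 and 11.8 to 60.4, 49.4 and 50.9 CPM in astrocytes. Markers of other cells moved too: of 6 oligodendrocyte lineage markers 5 were called lower in astrocytes, and of 4 neuron markers all 4. Their sums went from 1421 to 2238 CPM to 1158 to 1177 and from 36.7 to 58.1 CPM to 27.0 to 31.2 in astrocytes, and from 2050 to 2287 CPM to 2379 to 2920 and from 170 to 187 CPM to 219 to 237 in microglia. Fibroblast markers, of which 3 of 5 were called lower in astrocytes and 1 higher, went from 352 to 372 CPM to 209 to 247 in astrocytes and from 183 to 218 CPM to 205 to 218 in microglia. Under this level microglial sum, 2 of the 5 rose and 2 fell in microglia. Dcn changed there by 7.012 and Col3a1 by -2.325 in the fit of all 18 libraries (log2). The sum of 3 pericyte markers went from 67.4 to 112 CPM to 134 to 171 in astrocytes and from 12.02 to 18.5 CPM to 22.5 to 31.5 in microglia. The part of these cells in the results was not tested.

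Receptors for purines and adhesion molecules were divided gene by gene. P2rx4, an ATP-gated channel, rose in astrocytes from 93.6, 79.2 and 70.5 to 149.6, 157 and 151 CPM and fell in microglia from 561, 605 and 568 to 288, 285 and 359 CPM, and P2ry6, the UDP receptor of phagocytosis, changed by 1.95 ± 0.20 and -0.63 ± 0.18 (log2, SE). P2rx7 and P2ry1 fell in microglia only, 8.66-fold and 8.55-fold. The adenosine receptors went towards microglia: Adora1 fell from 31.4, 35.1 and 28.9 to 19.1, 25.2 and 19.01 CPM in astrocytes and rose from 7.36, 3.69 and 5.75 to 31.2, 31.8 and 35.3 CPM in microglia, and Adora2a was at 0.789, 0.217 and 0.508 CPM in untreated and 56.8, 76.7 and 62.4 in treated microglia. Of 21 adhesion molecules, 11 were called lower in astrocytes and 4 higher. Itgal, the α chain of LFA-1, rose 2.99-fold in microglia, from 1313, 878 and 1309 to 3141, 3364 and 3954 CPM, and fell in astrocytes from 28.3, 30.1 and 26.6 CPM, or 2.43% of the microglial level.

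Negative regulators of cytokine signalling also differed. Socs3, an inhibitor of signalling by the interleukin-6 family, rose 66.2-fold in microglia, from 3.68, 4.13 and 3.05 to 232, 249.8 and 234 CPM, while its astrocyte libraries overlapped (36.2, 10.6 and 60.9 and 55.8, 70.03 and 64.01 CPM). Dusp6, a phosphatase of ERK, rose 2.55-fold in astrocytes only. Tyk2, a kinase of interferon receptors, changed by 0.73 ± 0.18 in astrocytes and -1.19 ± 0.18 in microglia on the log2 scale. Among inflammasome genes, Nlrp3, the sensor, rose from 161, 159 and 179.6 to 481, 469.9 and 441 CPM in microglia and fell in astrocytes from 4.95% of the microglial level, whereas Casp1, the protease it activates, rose from 6.61, 6.56 and 5.38 to 17.6, 16.2 and 15.99 CPM in astrocytes only. Ripk1, a kinase of cell death signalling, changed by 0.37 ± 0.11 and -0.33 ± 0.11.

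The same difference between cell types can be read with the longer fibril, Aβ42, whose comparisons share the untreated libraries with those of Aβ40. Dhrs9 changed by 4.21 in astrocytes and -4.61 in microglia with Aβ42, beside 4.01 and -4.60 with Aβ40 in the same fit of all 18 libraries (log2). Thbd changed by -2.03 and 3.93 with Aβ42, beside -1.68 and 4.04 with Aβ40. A contrast of Aβ40 with Aβ42 between the cell types, which needs no untreated library, was called for 45 of 11581 genes (0.389%). Called genes included Insig1 and Sqle, for which the microglial change was -0.64 and -0.60 with Aβ40 and 0.71 and 0.30 with Aβ42, and Ndrg1, at -1.16 and -0.11. Their adjusted p-values were 0.0391, 0.0357 and 0.0115. The count of 45 was not stable. Leaving out 1 treated library gave 7 to 27 genes for all but 1 of them, and DESeq2 called 310. The exception was an Aβ42-treated microglia library that stood apart. It held 2613723 counts on genes, against 17687416 and 22274367 in the rest of its group. Without it 1735 genes were called (14.8%), among them 10 of 24 cholesterol genes instead of 2, all 10 in the same direction.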

How the data were processed

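RNA of untreated and fibril-treated astrocytes and microglia was sequenced from poly(A) libraries made with a stranded kit. The study's methods name STAR for alignment to the rat assembly rn5, Salmon for quantification and DESeq2 for gene counts, and the submitters' processing notes name the same tools. The authors deposited 1 table per library with the number of reads counted on each gene symbol, as whole counts that are not normalized, together with rows for reads on no gene or on several. Those rows, 21.7% to 34.2% of a library, were left out of library sizes and tests, which left 2271834 to 19013919 counts. Whether strand was used in counting is not given in the sources used here, so reads of overlapping antisense genes cannot be told apart. The tables of the cell types name some genes by different symbols, and only symbols found in both were used. The tables held 0 columns of other samples.

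Samples were grouped by the labels. TMM scaling and filterByExpr over the 4 groups preceded a joint fit with glmQLFit in edgeR 4.0.16 (R 4.3.3), without covariates. The interaction and the response of each cell type were tested with glmQLFTest, and p-values were adjusted over the 11248 genes by the Benjamini-Hochberg method, with a threshold of 0.05. A library's 3 counts correspond to 0.151 to 1.53 CPM, which covers counting error only. The procedure was tested on simulated data, where genes changed in 1 cell type alone were put in their class less often than genes changed in opposite ways.

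The members and the gene lists were chosen with earlier results of these data known. Genes were named by rule: in each class the smallest interaction p-values among genes whose treated and untreated libraries did not overlap, and in each list the highest and lowest difference, members that went opposite ways and members that responded in 1 cell type. Not every gene this takes is described, some results are not reported here, and Ifit3 and Ciita were added after their values were seen. Alternatives used DESeq2 1.42.0, limma-voom 3.58.1, other scalings and filters, thinned counts, replicate blocks and leaving out each library. Promoters of 8838 of the tested genes were matched by symbol to RefSeq sequences of GRCr8, 250 bases before the start, and both strands were searched. No coordinate of the authors' build was used.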

Additional observations from a re-analysis of the deposited data

Results flagged for a closer look

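The test of the difference between the cell types' responses was passed by 3562 of 11248 genes, which is what the comparison set out to count. Within it, 527 genes went opposite ways, 129 responded in astrocytes only and 237 in microglia only. A contrast of Aβ40 with Aβ42 between the cell types was passed by 45 of 11581 genes.

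Genes that the tables of the cell types name by different symbols stood outside the comparison. Of 410 such pairs matched through the RefSeq gene table, 323 could be tested and 103 had a called difference (31.9%, against 31.7% of the genes in the comparison), 53 higher and 50 lower in astrocytes. Of these, 20 went opposite ways, 2 responded in astrocytes only and 3 in microglia only. Mt1, a metallothionein listed as Mt1a in the microglia tables, was at 153, 79.1 and 101.2 CPM in untreated and 104, 89.8 and 86.9 CPM in treated astrocytes. In microglia it was at 12.4, 14.1 and 11.5 CPM untreated and 109, 110.0 and 114 CPM treated, a difference of -3.38 ± 0.28 (log2, SE; adjusted p = 4.66e-07), beside the difference of -6.85 of Mt2A. Acod1, the enzyme that makes itaconate, listed as Irg1 in the microglia tables, rose in both cell types, and its difference of -0.66 was not called (adjusted p = 0.5).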

How the results depend on the processing

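The number of called differences lay between 2691 and 3808 under another scaling, filter, tool or block, or in thinned counts, and between 2937 and 4578 when 1 library was left out. Leaving out 1 library gave 354 to 812 genes that went opposite ways, 77 to 195 of astrocytes only, 153 to 322 of microglia only, 442 to 797 that moved the same way, 407 to 507 detected in 1 cell type, 3179 to 5137 astrocyte and 3135 to 5270 microglia responses, and 7 to 1735 genes for the fibril contrast, for which DESeq2 called 310. Without allowance for library size, 98.4% of 3047 calls were higher in astrocytes, 42 genes went opposite ways, 0 and 0 responded in 1 cell type only, 46 moved the same way, 231 were called in 1 detecting cell type, and 1029 astrocyte and 1301 microglia responses were called. The filter of 10 counts in every library left 0 genes detected in 1 cell type and 2674 astrocyte responses. Thinning every library to the smallest, an alternative chosen after seeing the data, left 350 genes opposite, 85 of astrocytes only and 149 of microglia only, so depth limits these counts. A change of 2-fold in both cell types left 109 opposite, and an interval within 2-fold in place of 1.5-fold gave 432 and 596 genes of 1 cell type.

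Control and treated libraries of the same replicate number correlated at -0.476, -0.442 and 0.268 in astrocytes and at 0.0873, -0.0396 and -0.032 in microglia. With 3 libraries a group these values cannot tell whether replicate numbers pair the samples, and the labels do not say. A replicate block within each cell type called 2767 differences and 328 genes opposite, and a block across cell types 3291 and 436.

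Of 2948 values of named genes over 25 alternatives, 2890 kept their direction and side of the threshold, 44 lost their calls, 33 of them without allowance for library size, 2 gained one with limma-voom and 12 turned. Without allowance for library size these were Hk1 (0.00818), Eno1 (0.0115), Pgk1 (1.01), Sox9 (0.52), Cxcl12 (0.10), Hbegf (0.48), Igf2 (0.00814), Pdgfc (0.20), Cd14 (0.77), Timp3 (0.70) and Itgb2 (0.38), all below the median of 1.87 there. The other was Ptx3, not called to begin with, between -1.75 without untreated microglia replicate 1 and 1.78 without replicate 3. Thinned counts lost the calls of Lta, Ccl22, Ccl5, Irak4 and Ripk1 (adjusted p = 0.922, 0.955, 0.925, 0.203 and 0.0518), the block within cell type and the fit of 18 libraries that of Ccl5 (0.057 and 0.0776), and leaving out untreated astrocyte replicate 3 that of Ccl22 (0.943).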

Other observations

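Prostaglandin synthesis, scavenger receptors and iron handling also divided between the cell types. Of 18 tested genes of prostaglandin and leukotriene synthesis, 10 rose in microglia and 5 in astrocytes, with 7 differences lower in astrocytes and 2 higher. Ptgs1, cyclooxygenase 1, went opposite ways, from 7.66, 6.56 and 9.98 to 5.62, 5.68 and 6.11 CPM in astrocytes and from 37.99, 31.3 and 35.7 to 116, 104 and 117 CPM in microglia. Hpgds, the prostaglandin D synthase of blood cells, and Tbxas1, thromboxane synthase, did likewise, with differences of -3.14 ± 0.33 and -3.09 ± 0.22 (log2, SE). Their untreated astrocyte levels were 2.25% and 25.5% of the microglial ones.

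Of 25 scavenger, lectin and Fc receptors, 17 fell in astrocytes and 14 in microglia, and 12 differences were lower in astrocytes. Msr1, the class A scavenger receptor that binds Aβ fibrils, rose in microglia from 558, 587 and 628 to 1264, 1258 and 1564 CPM and fell in astrocytes from 12.7, 16.3 and 18.6 to 4.42, 4.02 and 4.97 CPM, or from 2.69% of the microglial level. Scarb1, the receptor for high-density lipoprotein, went the other way, rising from 56.02, 31.7 and 63.2 to 99.7, 129.7 and 124 CPM in astrocytes and falling from 188, 168 and 220.2 to 54.1, 61.8 and 61.4 CPM in microglia. Trem2, a lipid receptor of microglia, fell in both, to 0.201, 0.201 and 0.504 CPM in astrocytes and from 463, 474 and 555 to 165, 169 and 158 CPM in microglia. Lpl, lipoprotein lipase, fell 181-fold in microglia, from 2734, 3696 and 3280.1 to 19.02, 15.4 and 19.9 CPM, and 4.14-fold in astrocytes, from 0.628% of the microglial level.

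Of 18 genes of iron handling, 10 differences were higher in astrocytes and 3 lower. Steap4, a metalloreductase, rose 166-fold in astrocytes and 20.2-fold in microglia. Slc11a1, the phagosomal metal transporter NRAMP1, rose in microglia from 254, 209 and 254 to 604, 583 and 607 CPM and fell in astrocytes from 14.8, 13.6 and 16.7 to 7.13, 5.89 and 5.66 CPM. Among growth factors, Hbegf and Pdgfc rose in microglia only, 3.11-fold and 2.63-fold, to 32.3, 30.8 and 26.1 and 4.08, 4.04 and 3.58 CPM, and Igf2 changed by -1.26 ± 0.23 in astrocytes and 0.68 ± 0.20 in microglia (log2, SE). Of the tissue inhibitors of matrix proteases, Timp2 fell 2.71-fold in microglia only and Timp3 2.48-fold in astrocytes only.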
